A study of Mus musculus with 60 samples.

Results

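A set of 10 ligand-regulated transcription factors that let hepatocytes sense foreign chemicals, hormones and sterols were followed in cultured mouse hepatocytes that received hepatocyte growth factor (HGF), the cytokine interleukin 6 (IL-6), or both together. They are Nr1i2 (the pregnane X receptor, PXR), Nr1i3 (the constitutive androstane receptor, CAR), Nr1h3 (liver X receptor alpha), Rxra, Rarb, Thrb, Esr1, Nr3c1 (the glucocorticoid receptor), Rora and Ahr. The members were the genes of these 10 names out of 18194 genes on the array, with 1 probe set standing for each gene, the one of highest mean log2 intensity over all arrays. Of the 10, 9 passed the intensity filter that left 14513 genes for testing. Nr1i3 did not pass.

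The cells were primary hepatocytes of male C57BL/6N mice of 8 to 12 weeks, from 1 animal or a pool of at most 3 per experiment, on collagen I. They attached for 4 h in medium with serum and insulin and were then kept without serum for 24 h. All groups, controls included, were in medium with 100 nM dexamethasone, a synthetic ligand of the glucocorticoid receptor that can also act on the pregnane X receptor. The 4 arms compared were no stimulus, 40 ng/ml recombinant mouse HGF, 40 ng/ml recombinant human IL-6, and both together. Each arm had 2 arrays at each of 7 times (0.5 h, the early hours 2, 4 and 8 h, and the later hours 16, 24 and 32 h), and unstimulated cells had 4 arrays at 0 h. This made 60 arrays in 29 groups. The series text speaks of 3 biological replicates, and whether a pair of arrays stems from different animals is not stated. P-values therefore reflect only how much these arrays vary, part of which may be technical. In such bulk samples, fewer cells of a type and less RNA per cell cannot be told apart.

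Nuclear receptors bind small lipophilic ligands and then act directly on DNA. PXR, CAR, the liver X, retinoic acid and thyroid hormone receptors do so as partners of a retinoid X receptor such as Rxra. PXR and CAR drive the cytochrome P450 enzymes and transporters that clear drugs and bile acids, and in liver the receptors of this superfamily also set sterol, glucose and hormone metabolism. Ahr is not a nuclear receptor: it belongs to the bHLH-PAS family, pairs with Arnt, and senses planar aromatic compounds and indoles. HGF acts on the receptor tyrosine kinase Met and drives hepatocyte growth, and IL-6 acts through gp130 and STAT3 and drives the acute phase response.

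Promoter windows are shown for 4 members that the results below turn on, from RefSeq on build GRCm38.p6. Each holds the 250 bases before an annotated transcription start, 5′ to 3′ on the gene's strand. Capitals mark matches to 4 motifs searched on both strands: a STAT-type site TTCNNNGAA, an AP-1 site TGANTCA, the nuclear receptor half-site AGGTCA, and a direct repeat of the retinoic acid response element type with 2 copies of GTTCA with 6 bases between them. Among 32851 promoter windows of the same length, these letters occur in 7.02%, 6.75%, 14% and 0.067%. A match is a description of the letters and not a site of binding.
Rarb, chr14:16575477-16575726, minus strand: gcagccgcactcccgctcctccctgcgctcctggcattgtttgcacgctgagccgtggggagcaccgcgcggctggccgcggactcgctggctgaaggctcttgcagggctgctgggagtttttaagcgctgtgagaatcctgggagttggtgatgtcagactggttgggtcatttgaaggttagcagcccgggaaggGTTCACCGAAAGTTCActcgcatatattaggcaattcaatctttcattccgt
Nr1i2, chr16:38294825-38295074, minus strand: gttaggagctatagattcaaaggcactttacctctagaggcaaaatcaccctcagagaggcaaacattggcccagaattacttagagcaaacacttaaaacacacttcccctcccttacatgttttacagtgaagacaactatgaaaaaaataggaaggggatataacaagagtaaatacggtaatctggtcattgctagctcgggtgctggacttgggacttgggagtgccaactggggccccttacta
Rora, chr9:68653536-68653785, plus strand: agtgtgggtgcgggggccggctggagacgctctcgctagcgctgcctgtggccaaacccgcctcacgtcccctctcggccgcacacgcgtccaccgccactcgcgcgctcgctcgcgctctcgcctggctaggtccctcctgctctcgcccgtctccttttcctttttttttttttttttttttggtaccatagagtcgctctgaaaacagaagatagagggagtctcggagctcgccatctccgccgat
Esr1, second listed start, chr10:4709908-4710157, plus strand: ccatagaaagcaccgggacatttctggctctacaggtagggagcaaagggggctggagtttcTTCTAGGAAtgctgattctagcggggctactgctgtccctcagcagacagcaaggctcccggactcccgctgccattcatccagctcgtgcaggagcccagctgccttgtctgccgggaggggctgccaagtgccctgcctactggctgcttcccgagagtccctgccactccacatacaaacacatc
The capitals in Rarb are the retinoic acid response element type, which 22 of the 32851 windows hold, starting at position -52 from the transcription start. A STAT-type match overlaps it from position -51. Rarb is a textbook example of a gene that its own receptor family regulates through such an element. The capitals in Esr1 are a STAT-type match at position -188. The windows of Nr1i2 and Rora hold none of the 4 motifs. In all, windows were taken for 8 of the receptors, with 12 windows. Ahr had no entry in RefSeq's table, and Nr3c1 was left out. Of these 12 windows, 2 held the STAT-type letters, 2 the half-site, 1 the AP-1 letters and 1 the retinoic acid response element type.

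All values are deposited log2 intensities of 1 probe set per gene, so that 1 unit is a factor of 2, and levels are not set against each other between genes. A gene was called changed in a comparison when limma's moderated F-test over the 7 hours had an adjusted p below 0.05 (Benjamini-Hochberg over all 14513 genes). Whether a called gene rose or fell was read at the hour where its difference was largest. P-values of single hours are limma's, adjusted over the same genes within that hour, and SE is the standard error of the fit. The 3 comparisons against unstimulated cells share those control arrays.

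Technical measures divide the arrays along with the groups. The difference between the 3′ and 5′ probe sets of the labelling control dap was 1.18 to 1.52 for unstimulated cells up to 4 h (10 arrays) and 2.46 to 3.11 for the others, with 1 IL-6 array of 24 h at 3.99. The hybridisation control bioB, at 8 to 32 h, read 8.13 to 8.4 without stimulus and 5.38 to 7.05 with one. At 2 and 4 h it read 8.32 to 8.53 in unstimulated cells, 6.21 to 6.35 under HGF, 7.08 to 7.21 under IL-6 and 5.7 to 6.03 under both. At 0.5 h it read 8.29 and 8.39 in unstimulated cells, 8.47 and 8.36 under HGF, 7.08 and 7.03 under IL-6, and 5.83 and 6.01 under both. Over all genes tested, the change of unstimulated cells from 4 to 8 h, less that of stimulated cells, had a median size of 0.15 and a 95th percentile of 0.5. Differences from unstimulated cells thus coincide with the dap and bioB splits at 2 and 4 h, and at 0.5 h except under HGF, where bioB overlapped. At 8 to 32 h they coincide with the bioB split and not with the dap split. The 3′ minus 5′ difference of the actin probe sets also set the arrays apart at later hours. At 16 h it read 0.48 and 0.51 in unstimulated cells and 0.53 to 0.63 in stimulated ones. At 24 h it read 0.54 and 0.56 against 0.59 to 0.94, and at 32 h 0.71 and 0.72 against 0.74 to 0.96. The part of these measures in the results was not tested. Comparisons among the 3 stimulated arms do not cross the dap split, but in bioB these arms did not overlap at 0.5, 2 and 4 h. At 8 to 32 h bioB lay at 5.94 to 6.98 under HGF, 5.51 to 7.05 under IL-6 and 5.38 to 5.93 under both. The combination and HGF thus did not overlap. Taken hour by hour, IL-6 and HGF overlapped at 24 h alone among these hours. At 32 h, for example, bioB read 6.98 and 6.94 under HGF and 5.72 and 5.65 under IL-6. IL-6 and the combination did not overlap at 8, 24 and 32 h. The part of these bioB differences in comparisons among stimulated arms was not tested. Hepatocyte markers had a mean log2 intensity of 10.01 to 12.43 per array. The macrophage marker Timd4, the stellate cell marker Lrat and the leukocyte markers Ptprc and Nkg7 were above the filter on 0 arrays. Other markers of non-hepatocyte cells were above it on all 60. Examples are the macrophage marker Cd68 (mean 8.02), the endothelial marker Lyve1 (7.15), the stellate cell marker Des (6.39) and the lymphocyte marker Cd3e (5.29).

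Under HGF most of the receptors were lower. In HGF against unstimulated cells, all 9 tested members were called, 8 of them lower and 1, Nr3c1, higher. Of all genes tested, 62.6% were called, 29.8% higher and 32.8% lower. Over 8 to 32 h alone, all 9 fell, against 27.9% of all genes. At 8 h the median difference of the 9 was -0.41, beside -0.01 for all genes. IL-6 split the receptors: against unstimulated cells 2 rose, Rora and Ahr, 6 fell, and Thrb did not pass (limma adjusted p = 0.104), where 55.1% of all genes were called, 23.4% higher and 31.7% lower. The combination gave 3 that rose, Nr3c1, Rora and Ahr, 5 that fell, and again Thrb that did not pass (limma adjusted p = 0.0513), with 68% of all genes called, 31.3% higher and 36.7% lower. IL-6 over 8 to 32 h alone gave 2 that rose and 5 that fell, beside 18.7% and 23.3% of all genes. The combination over those hours gave 1 that rose, Ahr, and 7 that fell, Nr3c1 and Rora among them, beside 28.5% and 28.7%. Since the receptors were chosen with earlier results known, nothing is read from how many of them were called.

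**Figure D1:**
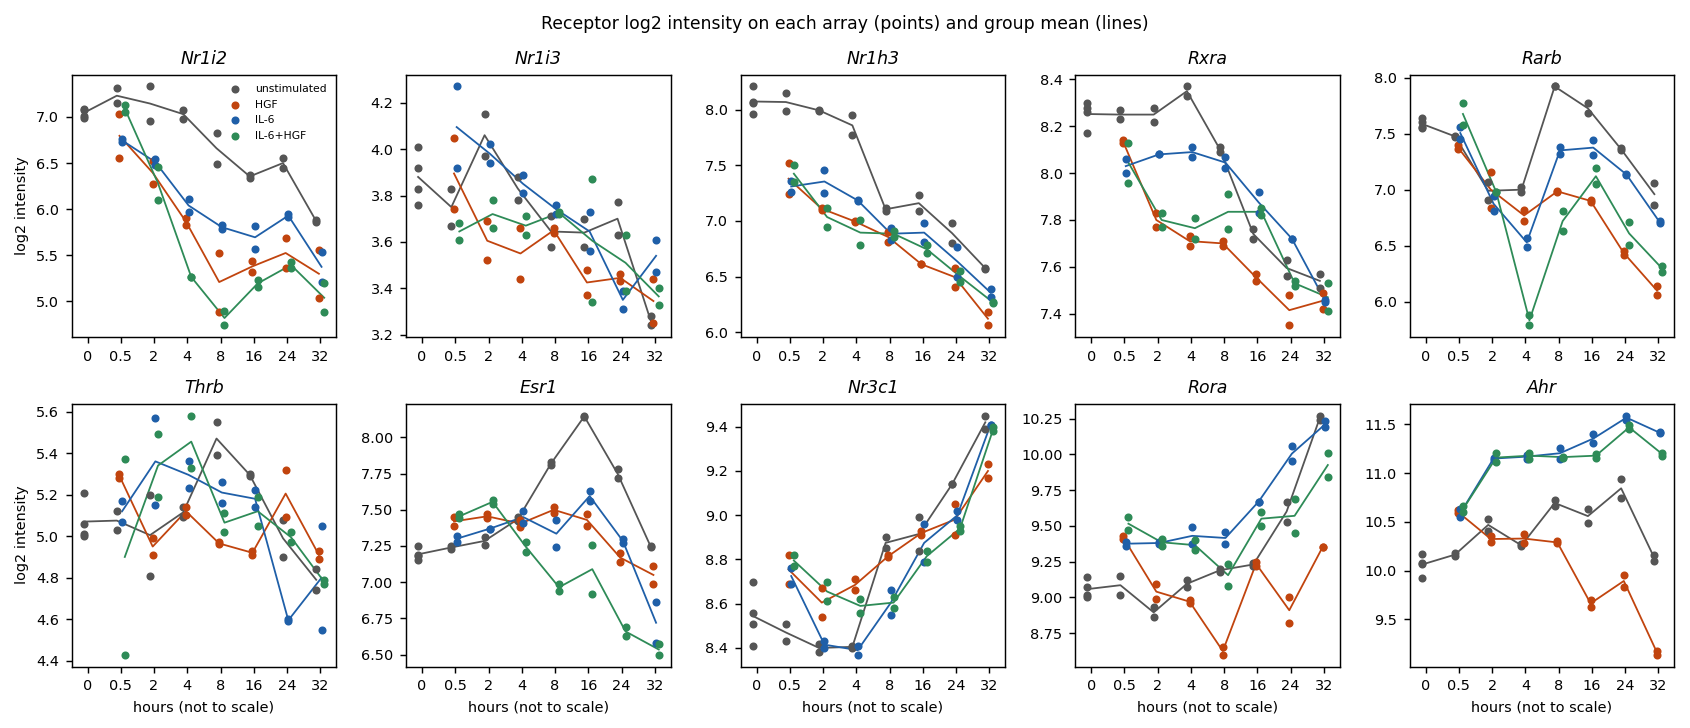
Log2 intensity (vertical axis, own range per gene) of the 10 receptors against culture hour (horizontal axis, not to scale), with 1 point per array, lines through group means, and colours for the 4 arms. Ahr under IL-6 lies at 11.14 or above from 2 h on while Ahr under HGF falls to 9.14, and Nr1i3 stays between 3.24 and 4.27.

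**Figure D2:**
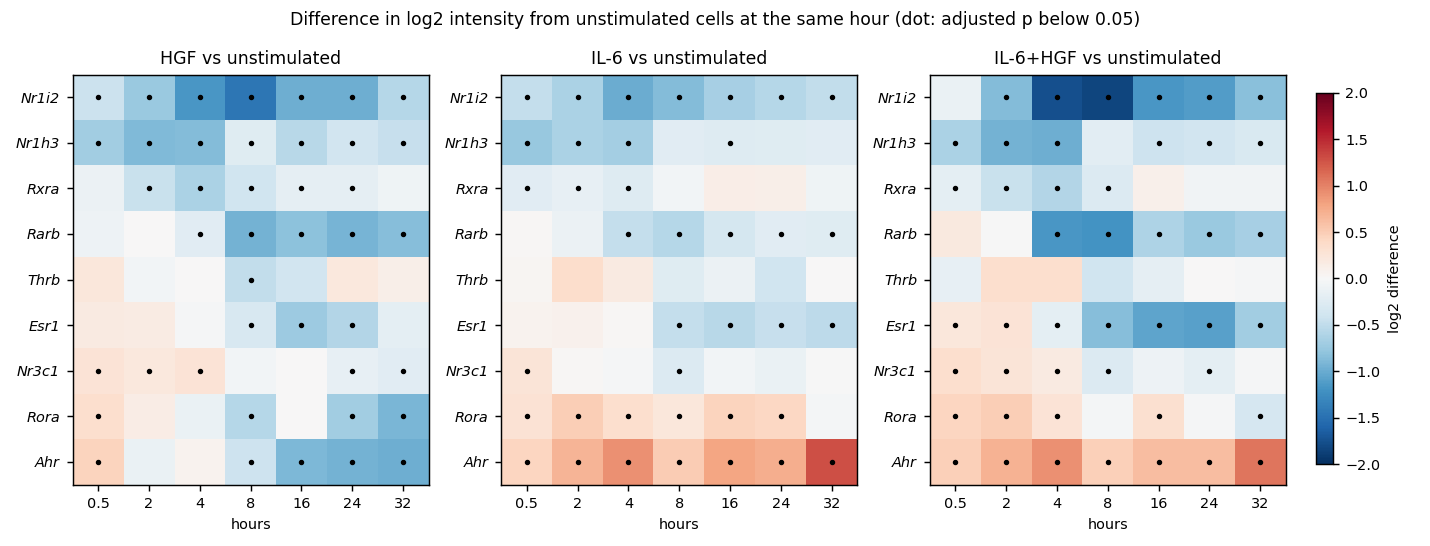
Difference in mean log2 intensity between each stimulated arm and unstimulated cells at the same hour (colour, from -2 to 2) for the 9 tested receptors. Dots mark an adjusted p below 0.05 at that hour in the limma fit. Nr1i2 is lower in all 3 arms, with the lowest value of -1.84 in the combination at 8 h, and Ahr is higher wherever IL-6 was present.

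The xenobiotic receptors come first. Nr1i2 encodes PXR, which binds drugs, steroids and bile acids and switches on Cyp3a genes. In unstimulated cells its log2 intensities were 6.99, 7.01, 7.09 and 7.08 at 0 h, 6.83 and 6.49 at 8 h, and 5.86 and 5.88 at 32 h. At 8 h the HGF arrays read 4.89 and 5.53, the IL-6 arrays 5.83 and 5.78, and the combination arrays 4.9 and 4.74. Both arrays of each stimulated arm lay below both unstimulated arrays at all 7 hours. At 8 h Nr1i2 was lower by 1.44 under HGF (SE 0.16, 2.72-fold, limma adjusted p over all hours 3.42e-15) and by 1.84 under both (SE 0.16, 3.57-fold, adjusted p = 3.36e-19). IL-6 alone had its largest effect at 4 h, a fall of 0.99 (SE 0.16, limma adjusted p = 1.77e-10).

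IL-6 arrays were higher than HGF arrays by 0.59 at 8 h (SE 0.16, limma adjusted p = 0.00713 over all hours), and this call is lost (adjusted p = 0.0626) without HGF replicate 1 of 8 h, the array at 4.89. HGF added to IL-6 lowered Nr1i2 by a further 0.98 at 8 h (SE 0.16, limma adjusted p = 6.18e-08). IL-6 added to HGF lowered it by 0.6 at 4 h (SE 0.16, limma adjusted p = 0.00525), a call that did not pass over 8 to 32 h alone (adjusted p = 0.0986). The second Nr1i2 probe set followed the same course, with a correlation of 0.97 over the 60 arrays, and fell by 2.31 at 8 h under both stimuli. In unstimulated culture Nr1i2 fell by 1.17 from 0 to 32 h (SE 0.14, limma adjusted p = 8.14e-11).

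Nr1i3 encodes CAR, which drives Cyp2b genes. Its single probe set read 3.24 to 4.27 over the 60 arrays and was above the 40th percentile of its array on 0 of them. At 32 h, for example, it read 3.24 and 3.28 in unstimulated cells, 3.25 and 3.44 under HGF, 3.47 and 3.61 under IL-6, and 3.4 and 3.33 under both. Its level was not distinguishable from that of dim probe sets, and it was not tested in the main fit. It entered only the alternative fit without a filter on low values, and nothing is read from it there.

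Ahr, the aryl hydrocarbon receptor, gave the largest differences between stimuli among the 9. In unstimulated cells it read 10.08, 9.93, 10.17 and 10.07 at 0 h, 10.63 and 10.49 at 16 h, and 10.16 and 10.1 at 32 h. Under HGF it read 9.63 and 9.7 at 16 h and 9.18 and 9.14 at 32 h. Under IL-6 it read 11.4 and 11.31 at 16 h and 11.41 and 11.42 at 32 h. The combination stayed beside IL-6, with 11.16 and 11.2 at 16 h and 11.18 and 11.21 at 32 h. The arrays without IL-6 and those with it did not overlap at any hour from 2 h on.

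Against unstimulated cells at 32 h, Ahr was lower by 0.97 under HGF (SE 0.06, 1.96-fold) and higher by 1.29 under IL-6 (SE 0.06, 2.44-fold) and by 1.07 under both (SE 0.06, 2.1-fold). The limma adjusted p-values over all hours were 4.81e-25, 1.85e-28 and 4.22e-27. IL-6 exceeded HGF by 0.83 at 2 h, 1.69 at 16 h and 2.26 at 32 h (SE 0.06, 4.78-fold, limma adjusted p = 9.26e-38). At 0.5 h, in contrast, Ahr was higher by 0.44, 0.43 and 0.47 in the HGF, IL-6 and combination arms, and IL-6 differed from HGF by only -0.02 (SE 0.06). The change of Ahr in unstimulated cells from 4 to 8 h exceeded that in stimulated cells by 0.44, so that differences from unstimulated cells before and after this step stand on different footings. IL-6 against HGF does not use those arrays, but the IL-6 and HGF arrays did not overlap in bioB at 2 h, 16 h and 32 h.

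For Ahr the departure from additivity was tested as the difference that both stimuli made less the differences that HGF and IL-6 made alone. It was -0.4 at 0.5 h (SE 0.08), 0.72 at 16 h and 0.86 at 24 h (SE 0.08, limma adjusted p = 5.54e-15 over all hours), where 33.6% of all genes were called. By this probe set, Ahr under both stimuli stood above the sum of the single effects in the late hours. HGF added to IL-6 lowered Ahr by 0.18 at 16 h and 0.22 at 32 h (limma adjusted p = 0.00853 over all hours), a call that is lost with the mean over probe sets (-0.03 at 32 h, adjusted p = 0.338).

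These values come from the brighter of 2 Ahr probe sets. The other, with a mean log2 intensity of 5.19 and a correlation of 0.48 with the first, gave smaller differences, and in HGF against unstimulated cells another sign. Its IL-6 arrays exceeded its HGF arrays by 0.22 at 32 h and 0.41 at 8 h, and those of 2 h and 16 h overlapped. Against unstimulated cells at 32 h it was higher by 0.49 under IL-6, by 0.64 under both, and by 0.27 under HGF, where the brighter probe set fell. Its departure from additivity was -0.14 at 16 h, -0.01 at 24 h and -0.12 at 32 h, where the brighter probe set gave 0.72, 0.86 and 0.76, and with the mean of both it was 0.42 at 24 h (limma adjusted p = 4.29e-05 over all hours). The rise of Ahr under IL-6 at 32 h was therefore seen with both probe sets and its fall under HGF at 32 h and its late positive departure with 1 of 2.

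**Figure D3:**
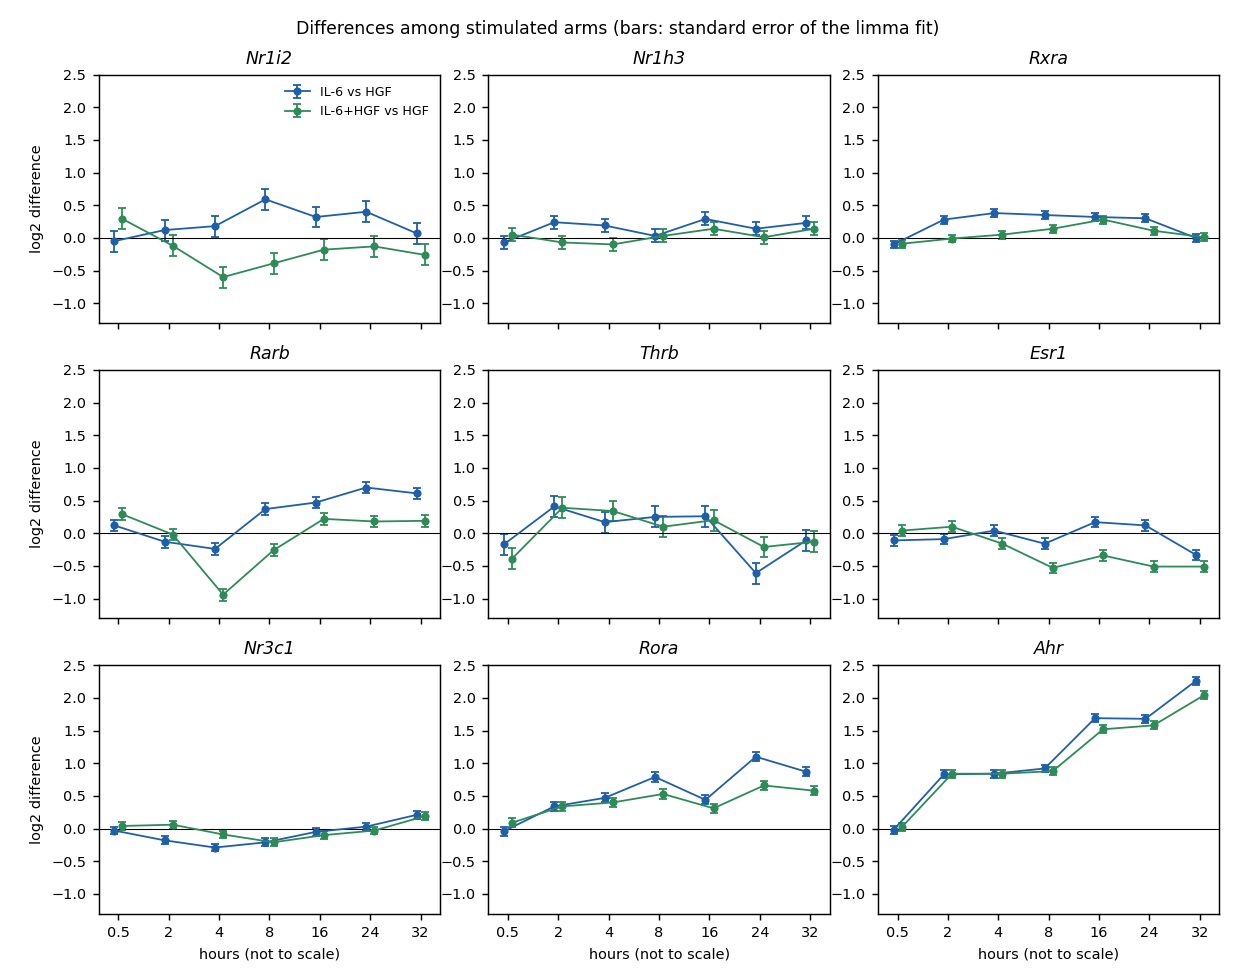
Differences in log2 intensity among the stimulated arms by hour for the 9 tested receptors: IL-6 minus HGF in blue and the combination minus HGF in green, with bars for the standard error of the limma fit. For Ahr both lines climb from about 0 at 0.5 h to 2.26 and 2.04 at 32 h, and for Rora the IL-6 line reaches 1.1 at 24 h.

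The sterol receptor and its partner follow. Nr1h3, liver X receptor alpha, senses oxysterols and drives cholesterol efflux and lipogenesis. It read 8.07, 8.06, 8.21 and 7.96 in unstimulated cells at 0 h, 7.23 and 7.09 at 16 h, and 6.57 and 6.58 at 32 h. At 16 h it read 6.61 and 6.61 under HGF, 6.81 and 6.98 under IL-6, and 6.78 and 6.71 under both. Every stimulated array lay below both unstimulated arrays of its hour, from 0.5 to 32 h. Nr1h3 fell by 0.55 at 16 h under HGF (SE 0.1, limma adjusted p over 8 to 32 h 2.46e-08), by 0.26 under IL-6 (adjusted p = 0.0023) and by 0.41 under both (adjusted p = 3.83e-06).

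Larger differences of Nr1h3 stood at the early hours, -0.88 at 2 h under HGF, -0.76 at 0.5 h under IL-6 and -0.97 at 4 h under both. These coincide with the split in the dap control, and Nr1h3 fell from 4 to 8 h by 0.76 in unstimulated cells against 0.15 in stimulated ones. That difference of -0.61 exceeds the 95th percentile of all genes, 0.5, and its part in the early values was not tested. IL-6 and HGF differed little, at most by 0.29 at 16 h (SE 0.1, limma adjusted p = 0.00642). The combination did not differ detectably from HGF (limma adjusted p = 0.631, largest difference 0.14 with SE 0.1). In unstimulated culture Nr1h3 fell by 1.5 from 0 to 32 h (SE 0.08, 2.83-fold, limma adjusted p = 1.72e-22). These hours lie on either side of the dap split, whose part in the fall was not tested.

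Rxra, the shared dimer partner, had smaller differences. At 4 h it read 8.37 and 8.33 in unstimulated cells, 7.73 and 7.69 under HGF, 8.07 and 8.11 under IL-6, and 7.81 and 7.72 under both. The 4 arms at 4 h formed an order of unstimulated, IL-6 and then both HGF-containing arms, which overlapped each other. Rxra fell by 0.64 under HGF (SE 0.06, 1.56-fold, limma adjusted p = 2.95e-14), by 0.26 under IL-6 (adjusted p = 4.41e-05) and by 0.59 under both (adjusted p = 8.44e-13). The change from 4 to 8 h in unstimulated cells differed by -0.26 from that of stimulated cells. Over 8 to 32 h Rxra was still lower under HGF, by 0.4 at 8 h (limma adjusted p = 2.97e-07), and its IL-6 difference did not pass (adjusted p = 0.0746). With the mean over probe sets the IL-6 difference at 4 h was -0.07 and did not pass either (adjusted p = 0.176). IL-6 against HGF, which uses no unstimulated array, was 0.38 at 4 h and 0.35 at 8 h (SE 0.06, limma adjusted p = 8.2e-11). Rxra fell by 0.71 in unstimulated culture by 32 h (SE 0.05, limma adjusted p = 9.26e-20). Of its 3 probe sets, 2 lay below unstimulated cells under HGF at 4 h and the dimmest overlapped.

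The receptors for retinoic acid, thyroid hormone and estrogen differed from each other. Rarb, retinoic acid receptor beta, first dipped and then rose in unstimulated cells, with 7.56, 7.6, 7.64 and 7.55 at 0 h, 6.98 and 7.02 at 4 h, and 7.92 and 7.92 at 8 h. At 4 h it read 6.72 and 6.82 under HGF, 6.49 and 6.57 under IL-6, and 5.79 and 5.88 under both. At 8 h it read 6.98 and 6.99 under HGF, 7.38 and 7.32 under IL-6, and 6.63 and 6.81 under both. The combination arrays were lowest at both hours and overlapped no other arm.

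Rarb fell at 8 h by 0.94 under HGF (SE 0.09, 1.92-fold, limma adjusted p = 2.65e-19), by 0.57 under IL-6 (SE 0.09, adjusted p = 3.2e-09) and by 1.2 under both (SE 0.09, 2.3-fold, adjusted p = 8.94e-22). At 4 h the combination was 0.94 below HGF and 0.7 below IL-6 (SE 0.09 each, limma adjusted p = 3.05e-11 and 1.62e-12 over all hours). The departure from additivity changed sign with time: -0.47 at 4 h (SE 0.12) and 0.57 at 16 h (SE 0.12, limma adjusted p = 2.21e-06 over all hours). From 8 to 32 h IL-6 arrays stood above HGF arrays, by 0.7 at 24 h (SE 0.09, limma adjusted p = 2.68e-12).

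Thrb, thyroid hormone receptor beta, was the least settled of the 9. At 8 h it read 5.55 and 5.39 in unstimulated cells, 4.96 and 4.97 under HGF, 5.26 and 5.16 under IL-6, and 5.02 and 5.11 under both. The fall of 0.5 under HGF (SE 0.16, limma adjusted p = 0.0346 over all hours) was the only single hour called against unstimulated cells. The call over all hours is lost without any 1 of 9 arrays (limma adjusted p 0.051 to 0.126). These were unstimulated replicate 1 of 8 h, both of 16 h and replicate 2 of 24 h, and HGF both of 8 h, both of 16 h and replicate 2 of 24 h. The 2 combination arrays at 0.5 h, 4.43 and 5.37, had the widest spread of any group for a tested receptor, an SD of 0.66. Without the array at 5.37 the combination against unstimulated cells passed (limma adjusted p = 0.000201), and without the array at 4.43 it passed too (adjusted p = 0.00327). IL-6 was below HGF by 0.61 at 24 h (SE 0.16, limma adjusted p = 0.00523). The combination against HGF was called over all hours (limma adjusted p = 0.0415), with its largest difference 0.39 at 2 h (SE 0.16), but at no single hour. The call over all hours did not pass with quantile normalization (adjusted p = 0.0634), the compared arms alone (adjusted p = 0.0981) or eBayes without trend (adjusted p = 0.0585). It is lost too without any 1 of 15 arrays (limma adjusted p 0.0516 to 0.104). These were HGF both of 0.5, 2, 4 and 16 h and replicate 2 of 24 h, and combination replicate 1 of 2 h, 2 of 4 h, 1 of 16 h, both of 24 h and 2 of 32 h.

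Esr1, estrogen receptor alpha, rose in unstimulated culture from 7.18, 7.19, 7.25 and 7.15 at 0 h to 8.15 and 8.14 at 16 h, and was back at 7.25 and 7.24 at 32 h. At 16 h it read 7.39 and 7.47 under HGF, 7.63 and 7.56 under IL-6, and 6.92 and 7.26 under both. At 24 h it read 7.72 and 7.78 in unstimulated cells, 7.2 and 7.14 under HGF, 7.27 and 7.3 under IL-6, and 6.69 and 6.63 under both. Unstimulated arrays were highest at both hours and combination arrays lowest, without overlap.

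The rise in culture was 0.95 at 16 h (SE 0.07, 1.94-fold, limma adjusted p = 1.89e-17), and 0.62 with the mean over its probe sets. Esr1 fell by 0.72 at 16 h under HGF (SE 0.08, limma adjusted p = 1.29e-12), by 0.55 under IL-6 (SE 0.08, adjusted p = 2.8e-12) and differed by -1.09 at 24 h under both (SE 0.08, 2.13-fold, adjusted p = 2.15e-22). At 24 h the single differences were -0.58 and -0.46. From 4 to 8 h Esr1 changed by 0.38 in unstimulated and -0.1 in stimulated cells, a difference of 0.49 beside the 95th percentile of 0.5 for all genes. The departure from additivity did not pass (limma adjusted p = 0.578) and was at most 0.21 (SE 0.11), a p that does not show additivity. Each stimulus lowered Esr1 further when added to the other, IL-6 by 0.53 at 8 h (limma adjusted p = 2.24e-11) and HGF by 0.62 at 24 h (adjusted p = 6.53e-11). At 2 h the combination was higher by 0.27 (SE 0.08), on the early side of the dap split. A second Esr1 probe set, with a correlation of 0.83, fell by 0.89 at 24 h under both, and the remaining one, above the filter on 0 arrays, differed by -0.15.

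Nr3c1, the glucocorticoid receptor, whose ligand dexamethasone was in every dish, changed mostly with time. It read 8.56, 8.41, 8.7 and 8.51 in unstimulated cells at 0 h and 9.39 and 9.45 at 32 h, a rise of 0.87 (SE 0.06, 1.83-fold, limma adjusted p = 5.52e-21). The rise was 0.5 with the mean over its probe sets, and these hours lie on either side of the dap split. At 32 h Nr3c1 read 9.17 and 9.23 under HGF, 9.41 and 9.41 under IL-6, and 9.38 and 9.4 under both. Only the HGF arrays lay below all others at that hour. Stimulation effects were small: 0.28 at 0.5 h under HGF (SE 0.06, limma adjusted p = 1.39e-06 over all hours), -0.27 at 8 h under IL-6 (adjusted p = 0.000408) and 0.33 at 0.5 h under both (adjusted p = 1.23e-07). By 8 to 32 h the HGF difference was negative, -0.22 at 32 h (SE 0.06, limma adjusted p = 0.00678 over those hours). The change of Nr3c1 from 4 to 8 h, unstimulated less stimulated, was 0.35. The 6 Nr3c1 probe sets disagreed at 0.5 h under HGF, where 2 lay above unstimulated cells, 2 below and 2 overlapped. With the mean over its probe sets the HGF difference at 0.5 h was -0.02 and the call was lost (adjusted p = 0.0839). At 32 h, 5 of the 6 lay below under HGF and 1 overlapped.

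Rora, an orphan receptor that binds sterol ligands and drives clock and lipid genes, rose late in culture. It read 9, 9.02, 9.14 and 9.07 in unstimulated cells at 0 h, 9.67 and 9.53 at 24 h, and 10.24 and 10.27 at 32 h. At 24 h it read 8.82 and 9 under HGF, 10.06 and 9.95 under IL-6, and 9.69 and 9.45 under both. HGF arrays were lowest and IL-6 arrays highest, with the combination overlapping unstimulated cells. At 32 h HGF arrays, at 9.35 and 9.35, were again lowest, while IL-6 arrays, at 10.23 and 10.19, lay close below the unstimulated ones.

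Rora rose by 1.2 in culture by 32 h (SE 0.06, 2.29-fold, limma adjusted p = 6.05e-23), and by 0.56 with the mean over its probe sets. HGF lowered it by 0.57 at 8 h, 0.69 at 24 h and 0.91 at 32 h (SE 0.07, 1.88-fold, limma adjusted p = 1e-18), but at 16 h the difference was 0, with overlapping arrays. IL-6 raised it by 0.49 at 2 h and 0.44 at 16 h (SE 0.07, limma adjusted p = 5.15e-13). IL-6 exceeded HGF by 1.1 at 24 h (SE 0.07, 2.14-fold, limma adjusted p = 3.34e-23), and by 1.05 without the IL-6 array whose dap difference was 3.99. IL-6 added to HGF raised Rora by 0.66 at 24 h (SE 0.07, limma adjusted p = 1.04e-16), and HGF added to IL-6 lowered it by 0.43 (adjusted p = 1.81e-07). The combination against unstimulated cells was 0.49 at 2 h and -0.33 at 32 h. The departure from additivity was 0.62 at 32 h (SE 0.09, limma adjusted p = 3.06e-06). Rora has 9 probe sets, of which 7 had both IL-6 arrays above both HGF arrays at 24 h and 2 overlapped. Under HGF at 32 h, 7 lay below unstimulated cells and 2 overlapped. At 16 h, where the probe set used showed no difference, 6 of the 9 lay above unstimulated cells under HGF, 0 below and 3 overlapped.

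**Figure D4:**
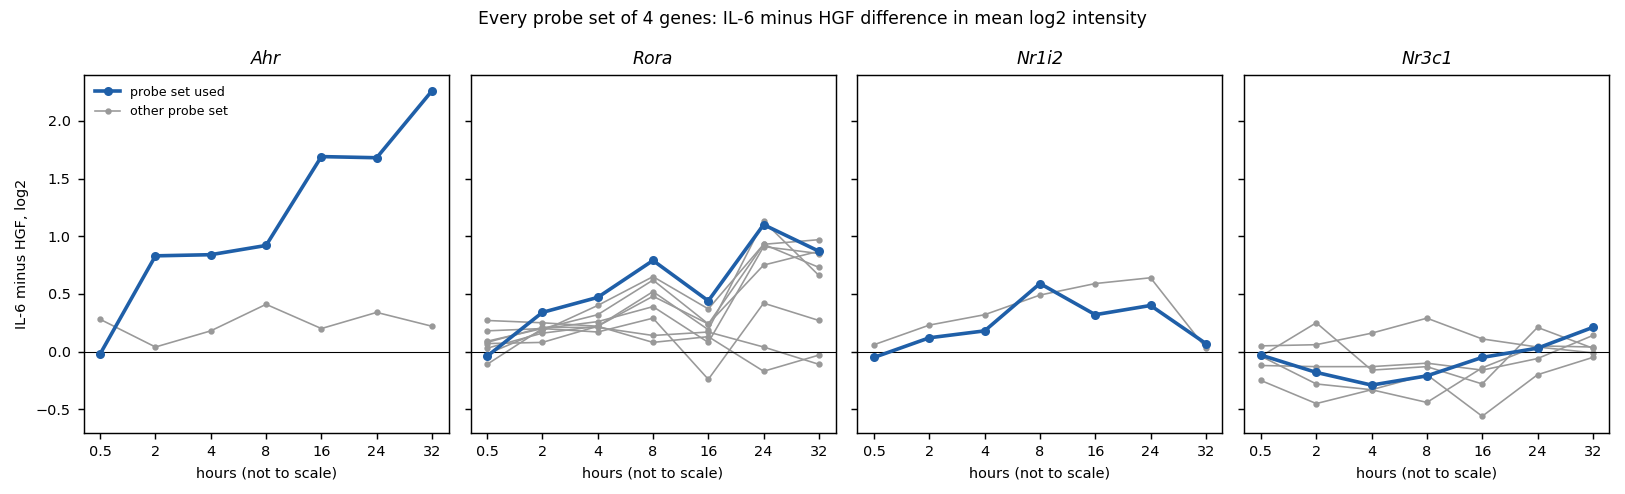
IL-6 minus HGF difference in mean log2 intensity by hour for every probe set of Ahr, Rora, Nr1i2 and Nr3c1, with the probe set used in blue and the others in grey. The second Ahr probe set stays between 0.04 and 0.41 while the one used reaches 2.26, and 7 of 9 Rora probe sets read 0.42 to 1.13 at 24 h.

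Comparisons among stimulated arms summarise the receptors without the unstimulated arrays. IL-6 against HGF called all 9, 6 of them higher (Nr1i2, Nr1h3, Rxra, Rarb, Rora and Ahr) and 3 lower (Thrb, Esr1 and Nr3c1), with 51.2% of all genes called, 22.3% higher and 28.9% lower. Nr3c1 was higher under IL-6 over 8 to 32 h alone, by 0.21 at 32 h (limma adjusted p = 0.00312). At 0.5 h none of the 9 was called between IL-6 and HGF, nor between the combination and either (single-hour limma tests). Of all genes, 0.338% were called for IL-6 against HGF, 0.296% for the combination against HGF and 4.62% for it against IL-6. A lack of a call does not show equal levels. At that hour the arrays of all 3 arms lay above the unstimulated ones for Ahr, Rora, Nr3c1 and Esr1. They lay below them for Nr1i2, Nr1h3 and Rxra. Not every probe set of Ahr, Rora, Nr3c1, Esr1 and Rxra did so under HGF and IL-6. Under HGF, 2 Nr3c1 and 2 Rora probe sets lay below unstimulated cells. The combination against HGF gave 4 that rose (Rxra, Thrb, Rora, Ahr), 4 that fell (Nr1i2, Rarb, Esr1, Nr3c1) and 1 that did not pass, beside 41.6% of all genes, 17.7% higher and 23.9% lower. The combination against IL-6 gave 1 that rose, Nr3c1, 7 that fell and 1, Thrb, that did not pass, beside 44.1%, 23.2% higher and 20.9% lower. Of these, Nr3c1 did not pass with the mean over probe sets (limma adjusted p = 0.275) or over 8 to 32 h (adjusted p = 0.859), and Nr1h3 did not pass over 8 to 32 h (adjusted p = 0.438). The departure from additivity, which does use the unstimulated arrays, was called for 6, all positive at their largest hour, and not for Thrb, Esr1 and Nr3c1. It did not pass over 8 to 32 h alone for Nr1i2 (0.48 at 16 h, limma adjusted p = 0.0697) or Rxra (0.19 at 8 h, adjusted p = 0.209), and with the mean over probe sets not for Rxra (0.14 at 4 h, adjusted p = 0.108). Of all genes 18.9% were called positive and 14.6% negative.

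In unstimulated culture against 0 h, 5 rose (Thrb, Esr1, Nr3c1, Rora and Ahr) and 4 fell (Nr1i2, Nr1h3, Rxra and Rarb), where 75% of all genes were called, 40.4% higher and 34.6% lower. At 0.5 h none of the 9 was called, beside 3.38% of all genes. Hours from 8 on lie beyond the dap split. As a description over the 29 group means, the levels of Nr1h3 correlated with those of Rxra at 0.91 and of Nr1i2 at 0.85, and with those of Nr3c1 at -0.77. These points share arrays and the trend with culture time. Ahr correlated with no other member above 0.48, the value for Rora. Of all tested genes, the closest in pattern over the 29 group means were Kalrn (0.957) for Nr1i2, Mrpl4 (0.971) for Nr1h3, Depp1 (0.942) for Rxra and Kifc3 (0.909) for Rarb. For Esr1 it was Hacd3 (0.92), for Nr3c1 Zdhhc17 (0.961), for Rora Sox5 (0.861) and for Thrb Cited4 (0.843). For Ahr the 3 closest were Serpina7 (0.925), Fgb (0.892) and Etv6 (0.886).

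Genes known to be driven by these receptors were listed and described by counts. The shares of all genes beside which this and each later list stands are 29.8% higher and 32.8% lower under HGF, 23.4% and 31.7% under IL-6, and 31.3% and 36.7% under both. Nothing is read from a list's count alone. Of 12 tested PXR and CAR targets, 6 fell and 3 rose under HGF, 8 fell and 1 rose under IL-6, and 8 fell and 3 rose under both. Cyp3a11, the main PXR-driven P450, fell at 24 h, with differences of -1.62 under HGF (SE 0.09), -1.79 under IL-6 and -1.96 under both, on top of a fall of 3.83 in unstimulated culture by 32 h (14.2-fold). Cyp2b10, the classic CAR target, fell at 32 h, with differences of -1.78, -1.53 and -2.55 in the same arms (SE 0.1). The combination lay above the sum of the single effects by 1.45 for Cyp3a11 at 24 h (limma adjusted p = 1.74e-13) and by 0.76 for Cyp2b10 at 32 h (adjusted p = 5.55e-06). At 4 h, when Nr1i2 was lower in all arms, Cyp3a11 was not called in any arm (differences of 0.03, 0.07 and 0.06) and Cyp2b10 only under HGF, by -0.28. Alas1, the first enzyme of heme synthesis, fell by 1.01 at 16 h under HGF and 0.82 at 4 h under both (SE 0.06).

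Of 5 tested Ahr targets, 1 rose and 3 fell under HGF, and 2 rose and 3 fell under IL-6 and under both. Tiparp, a feedback inhibitor of Ahr, rose in every arm, by 1.37 at 8 h under HGF, 1.04 at 2 h under IL-6 and 1.52 at 4 h under both (SE 0.08). Cyp1a1 fell at 16 h, with differences of -0.78, -0.91 and -0.89 (SE 0.18). Cyp1a2 fell too, with differences of -0.47 at 24 h under HGF (SE 0.08), -0.43 at 32 h under IL-6 and -0.57 at 32 h under both. Thus the 2 P450 genes fell in the arms where Ahr was higher and in the arm where it was lower. Arnt, the dimer partner of Ahr, fell by 0.52 at 32 h under HGF (SE 0.07), and IL-6 was above HGF by 0.51 at 24 h (limma adjusted p = 3.38e-10). Nqo1, a quinone reductase, fell at 16 h, with differences of -0.63, -0.85 and -1.2 (SE 0.11). Ahrr, the Ahr repressor, was not among the genes tested.

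**Figure D5:**
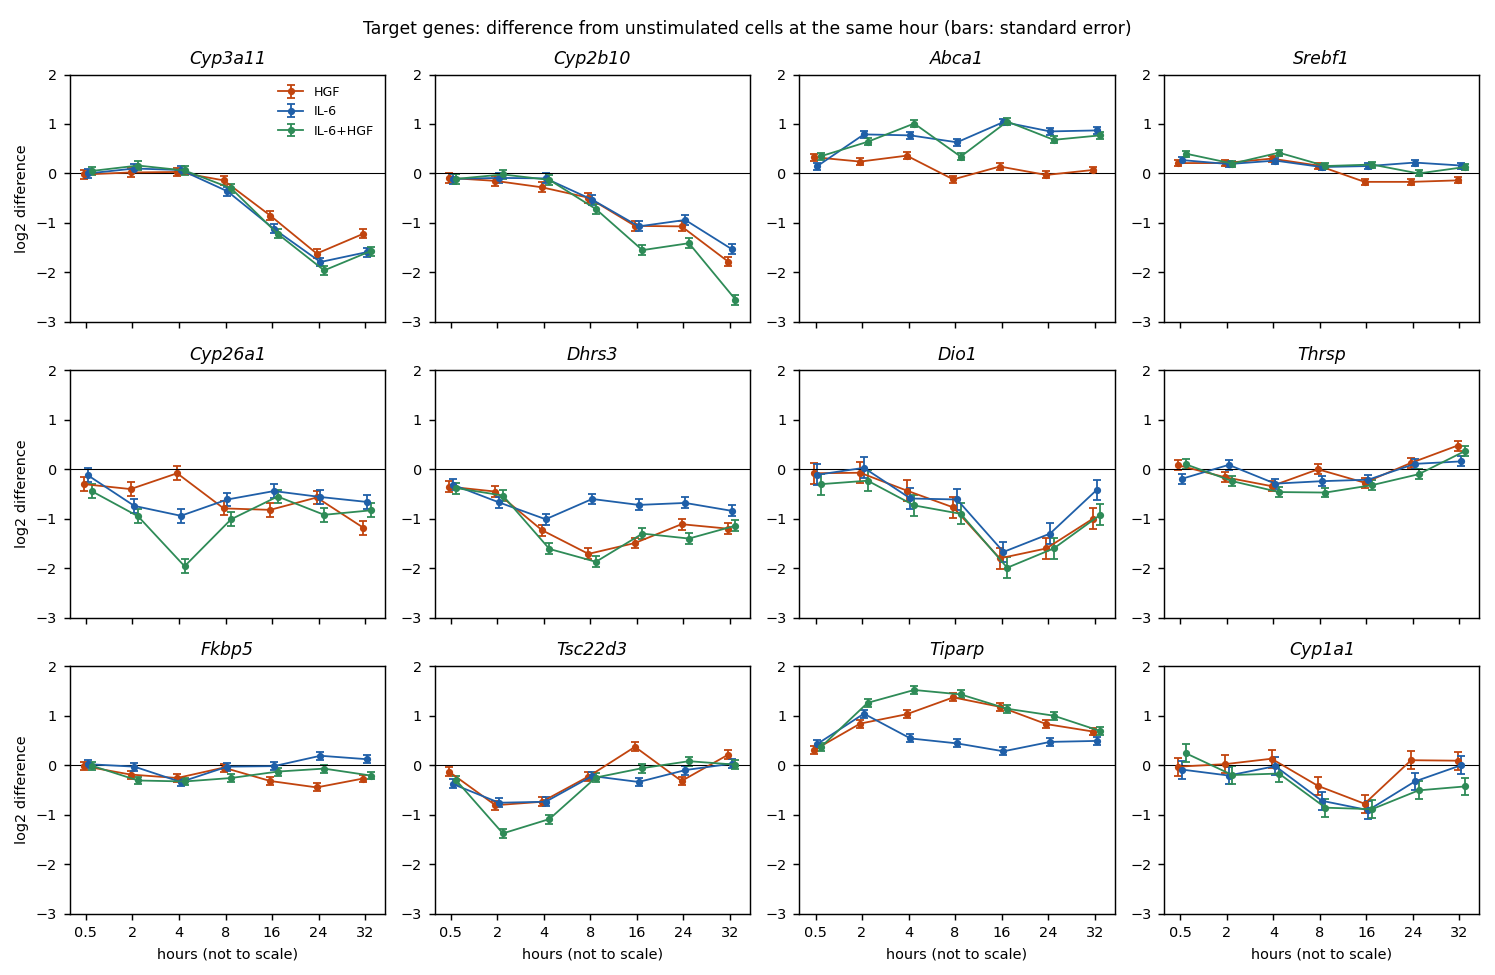
Difference in log2 intensity from unstimulated cells at the same hour for 12 target genes of the receptors, by arm, with bars for the standard error of the limma fit. Cyp3a11 and Cyp2b10 are near 0 until 4 h, apart from Cyp2b10 under HGF at -0.28, and fall after it, Cyp26a1 reaches -1.96 at 4 h in the combination, Abca1 is higher from 2 h on wherever IL-6 was present, and Tiparp is above 0 in every arm at every hour.

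Among 6 tested retinoic acid receptor targets, 3 fell under HGF, 2 fell and 1 rose under IL-6, and 2 fell and 1 rose under both. Cyp26a1, which breaks down retinoic acid, fell by 1.96 at 4 h under both (SE 0.14, 3.9-fold), the hour of the Rarb minimum in that arm, and by 0.94 at 4 h under IL-6. Dhrs3, a retinaldehyde reductase, fell, with differences of -1.71 at 8 h under HGF (SE 0.11), -1.01 at 4 h under IL-6 and -1.87 at 8 h under both. Tgm2, a transglutaminase, differed by -0.23 at 24 h under HGF and by 0.33 and 0.36 at 16 h under IL-6 and both (SE 0.04), each called. The departure from additivity was 0.9 for Dhrs3 at 16 h (limma adjusted p = 1e-08) and 1.01 for Cyp26a1 at 32 h (adjusted p = 4.39e-06).

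Of 11 tested liver X receptor targets, 3 rose and 5 fell under HGF, 3 rose and 4 fell under IL-6, and 3 rose and 5 fell under both. Abca1, the cholesterol efflux pump, rose by 1.04 at 16 h under IL-6 (SE 0.07) and by 1.05 under both, where Nr1h3 fell. Under HGF its largest difference was 0.36 at 4 h, and over 8 to 32 h it did not pass (limma adjusted p = 0.161). Srebf1, the lipogenic regulator, rose by at most 0.3 under HGF, 0.27 under IL-6 and 0.42 under both. Over 8 to 32 h alone it fell under HGF, by 0.17 at 24 h (limma adjusted p = 0.000303). Lpcat3, a phospholipid acyltransferase, rose at 16 h by 0.51, 0.33 and 0.78 in the HGF, IL-6 and combination arms (SE 0.05). Apoe, an apolipoprotein, fell, with differences of -0.35 at 24 h, and -0.42 and -0.58 at 32 h (SE 0.05).

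Of 12 tested glucocorticoid receptor targets, 4 rose and 7 fell under HGF, 2 rose and 9 fell under IL-6, and 4 rose and 7 fell under both. Tsc22d3 (GILZ) fell at 2 h, with differences of -0.81, -0.76 and -1.38 in the HGF, IL-6 and combination arms (SE 0.09), an hour at which the Nr3c1 differences were 0.21, 0.02 and 0.26. Fkbp5 fell by 0.45 at 24 h under HGF (SE 0.08), and IL-6 was above HGF by 0.64 at that hour (limma adjusted p = 1.36e-08). Angptl4, an inhibitor of lipoprotein lipase, rose by 1.04 at 16 h, 1.23 at 24 h and 1.52 at 16 h in the HGF, IL-6 and combination arms (SE 0.07), while Tdo2, which degrades tryptophan, fell, with differences of -2.36 at 16 h, -1.65 at 16 h and -2.64 at 8 h (SE 0.14). Mt2, a metallothionein, rose by 0.22 at 16 h under HGF and by 0.81 and 0.72 at 32 h under IL-6 and both (SE 0.04). Of 5 tested thyroid hormone receptor targets, 3 rose and 1 fell under HGF, and 1 rose and 3 fell under IL-6 and under both. Dio1, the deiodinase that makes active thyroid hormone, fell at 16 h, with differences of -1.8, -1.67 and -1.99 (SE 0.21), while Thrsp was 0.48 higher at 32 h under HGF (SE 0.1). Klf9 rose by 0.74 at 16 h under HGF and 0.48 under both (SE 0.06), and Me1, malic enzyme, fell by 0.31 and 0.45 at 24 h under IL-6 and both (SE 0.05). Of 8 tested ROR targets, 4 rose and 3 fell under HGF, 6 rose and 1 fell under IL-6, and 4 rose and 2 fell under both. Arntl, a clock gene, was higher by 0.72 at 16 h under HGF (SE 0.09) and by 0.28 at 8 h under IL-6. Cyp7b1, an oxysterol hydroxylase, fell at 16 h, with differences of -1.45, -0.61 and -1.39 (SE 0.07), and the clock gene Cry1 rose by 0.8 at 4 h, 0.46 at 8 h and 0.84 at 4 h (SE 0.1).

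The remaining nuclear receptors and cofactors were given by list. Of 30 other nuclear receptors tested, 6 rose and 13 fell under HGF, 2 rose and 14 fell under IL-6, and 5 rose and 15 fell under both. Nr1h4, the bile acid receptor FXR, fell, with differences of -1.32 at 24 h under HGF (SE 0.1), -0.85 at 16 h under IL-6 and -1.45 at 16 h under both. Hnf4a, a keeper of hepatocyte identity, fell by 0.87 at 16 h under HGF (SE 0.09) and by 0.29 at 8 h under IL-6. Ppara, the fatty acid receptor, fell, with differences of -0.24 at 2 h, -0.54 at 4 h and -0.6 at 2 h (SE 0.11), and under HGF it did not pass over 8 to 32 h. Nr0b2 (SHP) fell by 0.78 at 24 h under HGF and 0.51 at 16 h under both (SE 0.14), and the clock repressor Nr1d1 rose by 0.58 at 24 h under both (SE 0.15) and did not pass in the other arms. Of 15 coregulators, 7 rose and 7 fell under HGF, and 8 rose and 7 fell under IL-6 and under both. The coactivator Ppargc1a fell at 4 h, with differences of -0.81, -1.25 and -2.14 (SE 0.12), and the corepressor Nrip1 rose by 0.79 at 2 h, 0.66 at 16 h and 1.1 at 2 h (SE 0.06). Of 5 receptor chaperones and Ahr partners, 2 rose and 3 fell under HGF, and 1 rose and 3 fell under IL-6 and under both. The Hsp90 co-chaperone Stip1 fell, with a difference of -0.74 at 4 h in each arm (SE 0.07), though over 8 to 32 h alone it rose under IL-6. Of 10 genes of ligand metabolism, 2 rose and 6 fell under HGF, 1 rose and 6 fell under IL-6, and 1 rose and 7 fell under both. Hsd17b2, which inactivates estradiol, fell, with differences of -1.85 at 24 h under HGF, -1.27 at 32 h under IL-6 and -2.76 at 32 h under both (SE 0.08). Cyp27a1, which makes an oxysterol, fell at 24 h, with differences of -0.52, -0.77 and -0.99 (SE 0.06), and Aldh1a1, which makes retinoic acid, fell by 1.22 at 32 h under both (SE 0.04).

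Markers of other liver cells did not move as 1 group in the HGF comparison. Of 7 tested endothelial markers, 7 fell under HGF, 2 rose and 2 fell under IL-6, and 6 of 7 were higher in IL-6 than in HGF, beside 22.3% of all genes. Their mean log2 intensity per array was 5.17 to 5.91 under HGF, 5.56 to 5.89 under IL-6, 5.2 to 5.91 under both and 5.44 to 6.02 in unstimulated cells. Macrophage markers (7 tested) gave 1 rise and 3 falls under HGF, stellate and fibroblast markers (7 tested) 1 rise and 1 fall, bile duct markers (4 tested) 3 rises, and lymphocyte markers (2 tested) no call. Of 7 hepatocyte markers, 5 fell and 1 rose under HGF, and 6 fell and 1 rose under IL-6 and under both. The part of any of these cells in the receptor values was not tested.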

How the data were processed

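Biotin-labelled RNA of 60 cultures was hybridised to Affymetrix mouse arrays of 45101 probe sets. The values are log2 intensities as deposited by the authors, 1 per probe set and array; no label or header states how the authors scaled them. Array medians lay at 4.88 to 4.97, no 2 arrays were identical, and precision is limited by how many arrays there are. Probe sets with 1 gene symbol (34958) were used; those with several (932) or none (9211) were not. The brightest probe set on average stood for a gene, and genes above the 40th percentile of the array on at least 2 arrays were tested.

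The limma package (3.58.1, under R 4.3.3) fitted 1 mean for each group, with a variance trend in eBayes and 31 residual degrees of freedom. Each of 8 comparisons had a moderated F-test over 7 hours, Benjamini-Hochberg adjusted over 14513 genes at 0.05. The script was tested on simulated data. Members, lists and tests were chosen with earlier results of these data known. Named genes are the members, the 2 genes of each list with the smallest F-test p against unstimulated cells, a set of well-known targets and partners, and the genes nearest each member in pattern; some of these are not described. Same-numbered replicates of different groups were checked for shared deviations over 378 pairs of groups: correlations were -0.27 to 0.25 (median -0.00044). The arrays were treated as unpaired. A median over all pairs of groups cannot exclude pairing within some of them. Alternatives were quantile normalization, other filters, the mean over probe sets, the compared arms alone, a replicate block, other variance models, 8 to 32 h alone, and each array left out.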

Additional observations from a re-analysis of the deposited data

Results flagged for a closer look

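The departure from additivity was called for 6 of the 9 tested receptors in the limma fit over all hours, beside 33.6% of all genes. Its largest value was 0.78 at 0.5 h for Nr1i2, 0.81 at 0.5 h for Nr1h3, 0.31 at 4 h for Rxra, 0.57 at 16 h for Rarb, 0.62 at 32 h for Rora and 0.86 at 24 h for Ahr. The values of Nr1i2, Nr1h3 and Rxra stand at hours where unstimulated and stimulated arrays differ in the dap control. Those of Rarb, Rora and Ahr stand at hours where these arrays differ in bioB and in the actin 3′ minus 5′ difference. Unstimulated arrays enter every departure, and the part of these controls in these values was not tested. Over 8 to 32 h alone the departure did not pass for Nr1i2 (0.48, limma adjusted p = 0.0697) or Rxra (0.19, adjusted p = 0.209), and for Rxra it did not pass with the mean over probe sets (0.14, adjusted p = 0.108). The second Ahr probe set gave -0.01 at 24 h.

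Some receptors were called higher in an arm at one hour and lower at another by the single-hour limma tests (adjusted p below 0.05). In each case both stimulated arrays lay above, and then below, both unstimulated arrays. Changes of side in which an hour was not called are left out. How many of all genes meet this rule was not counted, so nothing is read from how many receptors do. The difference between the hours was not tested. All values here are those of the probe set used. Under HGF, Nr3c1 was 0.28 at 0.5 h and -0.22 at 32 h, Rora 0.33 at 0.5 h and -0.91 at 32 h, and Ahr 0.44 at 0.5 h and -0.97 at 32 h. At 0.5 h under HGF, 2 Nr3c1 probe sets lay above unstimulated cells, 2 below and 2 overlapped, and their mean gave -0.02. For Rora 3 lay above, 2 below and 4 overlapped. The second Ahr probe set overlapped at 0.5 h and lay above at 32 h, so it showed no such change of side. Under IL-6, Nr3c1 was 0.26 at 0.5 h and -0.27 at 8 h. Under both, Esr1 was 0.27 at 2 h and -1.09 at 24 h, Nr3c1 0.33 at 0.5 h and -0.27 at 8 h, and Rora 0.49 at 2 h and -0.33 at 32 h. In each pair the earlier hour lies before 8 h, where the arrays differ in the dap control, and its part in the change of sign was not tested.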

How the results depend on the processing

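The counts of receptors called stayed within 1.5 times their value under every alternative run. They were 8 to 10 for HGF against unstimulated cells, 7 to 9 for IL-6, 8 to 9 for both and 8 to 10 for IL-6 against HGF. Both against HGF gave 6 to 8, both against IL-6 gave 6 to 9, culture 8 to 10 and the departure from additivity 4 to 6. The main fit tested 9 receptors. Without the filter on low values Nr1i3 entered as well, and each count of 10 includes it. Thrb was left out by the filter at the 60th percentile. The shares of all genes under these settings are not given, and nothing is read from the counts. Over the receptors together, of 640 single differences recomputed under the other settings, 616 kept direction and call, 11 lost the call, 2 gained it and 11 reversed. With the mean over probe sets, the calls of Rxra under IL-6 (-0.07), Rxra in the departure from additivity (0.14), and Ahr (-0.03) and Nr3c1 (0.15) for both against IL-6 were lost, and Nr3c1 reversed to -0.02 under HGF and 0.13 in the departure from additivity. Over 8 to 32 h alone, where early hours are left out by construction, Nr3c1 became -0.22 under HGF, -0.27 under both, -0.06 for both against IL-6, 0.21 for IL-6 against HGF and 0.2 in the departure from additivity. The calls lost there were Nr1i2 for both against HGF (-0.39) and in the departure from additivity (0.48), Rxra in that departure (0.19) and Nr1h3 for both against IL-6 (-0.15). There Rxra became 0.13 under IL-6, Rora -0.33 under both, and Thrb -0.21 for both against HGF and 0.35 in the departure from additivity. The replicate block changed no call: 9, 8 and 8 receptors were called with it for HGF, IL-6 and both against unstimulated cells. With 1 array left out, 44 of 4320 values changed call or direction, all of Thrb except Nr1i2 for IL-6 against HGF without HGF replicate 1 of 8 h (0.27, limma adjusted p = 0.0626) and Nr3c1 for both against IL-6 without combination replicate 2 of 2 h (0.19, adjusted p = 0.0583). Without combination replicate 1 of 0.5 h, the Thrb departure from additivity turned to 0.04, and without replicate 2 it was -0.9 and passed (adjusted p = 0.0103). Counts ranged over 8 to 9 for HGF, IL-6, both, IL-6 against HGF and culture, 7 to 9 for both against IL-6, 7 to 8 for both against HGF and 6 to 7 for the departure from additivity. For reversals with probe sets or hours the cause was not tested beyond the values given. Nr1i3 could not be measured above the dim end of the arrays.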
